A study of Mus musculus with 36 samples.

Results

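The difference between 2 genotypes in the response of the kidney transcriptome to the higher of 2 doses of cadmium chloride (CdCl2) was measured by RNA sequencing. For each gene it is the log2 change from untreated to 2 mg/kg in ob mice minus the same change in b6j mice, called the interaction below. A positive interaction means that the gene moved upward in ob relative to b6j, and a negative one that it moved downward. The contrast was defined by the labels alone and used 24 of the 36 kidney libraries, 6 in each of 4 groups: untreated ob, ob given 2 mg/kg CdCl2, untreated b6j and b6j given 2 mg/kg CdCl2. The other 12 libraries, from both genotypes at 0.5 mg/kg, entered only the shared estimate of the spread. The ob mice are described as ob/ob and the b6j mice as normal C57BL/6, and the strain of all 24 is given as C57BL/6. Controls are labelled untreated, with no vehicle named, and the labels give no age, sex, route or duration. The labels number the replicates without naming animals, so p-values measure the spread between these libraries.

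Cadmium collects in the kidney, above all in the cells of the proximal tubule, where it is bound by metallothionein and damages mitochondria and membranes. Metallothionein genes are switched on through metal response elements by the zinc-sensing factor MTF1. Genes for glutathione supply, heme breakdown, conjugation and drug export are switched on through antioxidant response elements by NRF2. The ob/ob mouse makes no working leptin and becomes obese and insulin resistant.

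Promoters of 4 genes are shown because their transcripts give the readout of the metal (Mt1), or have a called interaction and a promoter that matches the antioxidant motif (Abcc4, Slco4c1 and G6pdx). The last 3 were picked for that match, which 4 of the 17 called genes searched had, these being members of the NRF2 list below and the genes with the largest interactions. Prlr, Slc7a11, Ugt1a10, Havcr1, Ceacam2 and Cbr1 were among the 13 without one. They are RefSeq windows of GRCm38.p6 from 250 bases before to 50 bases after a start site, written 5′ to 3′ on the strand of the gene, at chr8:94178839-94179138 (+), chr14:118706170-118706469 (-), chr1:96872122-96872421 (-) and chrX:74428831-74429130 (-). The Abcc4 window lies at the upstream one of 2 listed starts. Capitals mark matches on either strand to the metal response element core (TGCACNC or TGCGCNC) in Mt1 and to the antioxidant response element core (TGACNNNGC) in the others.
Mt1: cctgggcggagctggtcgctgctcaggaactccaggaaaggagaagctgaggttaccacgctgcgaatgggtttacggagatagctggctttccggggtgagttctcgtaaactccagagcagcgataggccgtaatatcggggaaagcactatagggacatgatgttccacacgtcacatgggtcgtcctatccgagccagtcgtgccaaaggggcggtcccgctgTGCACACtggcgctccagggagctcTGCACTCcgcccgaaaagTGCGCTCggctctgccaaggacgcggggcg
Abcc4: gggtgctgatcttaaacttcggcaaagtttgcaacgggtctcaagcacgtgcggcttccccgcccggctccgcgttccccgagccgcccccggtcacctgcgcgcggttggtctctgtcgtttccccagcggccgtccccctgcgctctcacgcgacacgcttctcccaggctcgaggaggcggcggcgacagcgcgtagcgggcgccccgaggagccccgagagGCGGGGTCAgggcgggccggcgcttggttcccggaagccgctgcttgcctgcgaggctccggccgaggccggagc
Slco4c1: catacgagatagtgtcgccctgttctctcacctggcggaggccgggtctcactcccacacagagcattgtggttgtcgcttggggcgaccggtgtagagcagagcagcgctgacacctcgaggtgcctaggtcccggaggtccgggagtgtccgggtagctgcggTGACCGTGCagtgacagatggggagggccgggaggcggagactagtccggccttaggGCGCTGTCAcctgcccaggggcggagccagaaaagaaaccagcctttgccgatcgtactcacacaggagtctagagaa
G6pdx: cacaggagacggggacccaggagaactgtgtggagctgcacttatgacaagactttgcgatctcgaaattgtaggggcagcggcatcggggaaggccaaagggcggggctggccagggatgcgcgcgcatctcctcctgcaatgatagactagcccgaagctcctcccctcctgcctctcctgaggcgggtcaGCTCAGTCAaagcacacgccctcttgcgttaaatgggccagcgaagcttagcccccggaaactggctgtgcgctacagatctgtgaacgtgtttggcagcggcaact
The Mt1 window held 3 metal response element cores. At least 2 occurred in 8.07% of all 27025 genes with a RefSeq promoter and in 12.5% of tested genes with one. A gene with several promoters was counted 1 time, by the one with the most matches. The antioxidant core occurred 1 time in Abcc4 and in G6pdx and 2 times in Slco4c1. It occurred in 14% of all genes with a promoter and in 16.7% of tested ones. Among genes called both with all libraries and without the library that stands apart, it occurred in 21.1% of those with a higher interaction and 17.1% of those with a lower one (123 and 140 genes with a promoter). A match describes these letters and is not a measured binding site.

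Libraries held 26783936 to 37244058 counted reads. A single library stood apart, replicate 5 of the ob group at 2 mg/kg. On the first 2 principal components of the 24 libraries (33.9% and 15.8% of the variance) it lay at 133.42 and 126.87, while the other 5 of its group lay at 31.08 to 59.66 and at -33.29 to -20.82. Its log2 levels correlated at 0.9144 with the mean of the rest of its group, against 0.9827 to 0.9917 for every other library of the 4 groups. Markers of several nephron segments were low in it: the phosphate transporter Slc34a1 of the proximal tubule at 16.5 CPM (read counts scaled to library size), Slc12a1 of the thick ascending limb at 77.5 CPM and Slc12a3 of the distal convoluted tubule at 47.8 CPM, against group medians of 3150, 1120 and 974 CPM. The count of calls and many of the named genes are therefore given with and without this library. Where no second value is printed, the value is that of all libraries and may rest in part on this one. Kidney segment markers were present in all 4 groups, T cell and neutrophil markers stayed near or below 1 CPM in the group medians, and the adrenal marker Cyp11b1 had a median of 0 in each group, with 13.8 CPM in 1 b6j library at 2 mg/kg. The median of Lep was 2.55 CPM in untreated ob and 0.0586 CPM in untreated b6j. It is a fat transcript, the ob allele is a point change that leaves the message in place, and its level checks no label.

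With all libraries 376 of 18180 tested genes had an interaction at an adjusted p below 0.05 by the quasi-likelihood test of edgeR (2.07% of genes), 193 higher (1.06%) and 183 lower (1.01%), and 136 of them (0.748%) differed by more than 2-fold. Without replicate 5 of the ob group at 2 mg/kg, 758 of 18380 genes were called (4.12%), with 404 higher (2.2%) and 354 lower (1.93%), and 156 (0.849%) beyond a 2-fold difference. Of the 376 genes, 358 were called in both fits, all with the same sign, and 18 only with that library. The shares of 2.07% and 4.12% are those to set beside the called members of each list below. The responses themselves were far wider. The change at 2 mg/kg was called for 6976 genes in ob (38.4%) and 4305 in b6j (23.7%), or 6989 (38%) and 6388 (34.8%) without that library. The genotypes differed in 2822 genes when untreated (15.5%) and in 2987 at 2 mg/kg (16.4%), or in 4781 (26%) and 2795 (15.2%) without it.

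**Figure D1:**
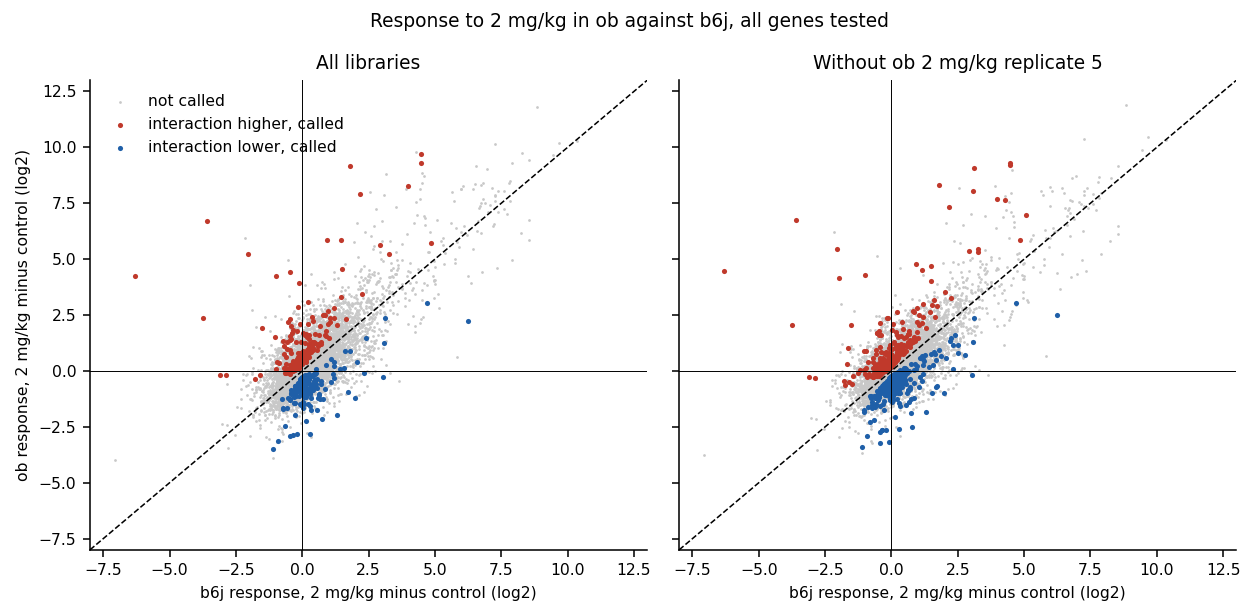
Change from untreated to 2 mg/kg in b6j (horizontal, log2) and ob (vertical, log2) for each tested gene, with all libraries on the left and without ob replicate 5 at 2 mg/kg on the right. Grey points are not called and coloured points are the called interactions, 193 higher and 183 lower on the left, which lie on either side of the dashed line of equal response.

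With all libraries, most called genes had a called response in ob and none in b6j. Of the 193 with a higher interaction, 106 had a called rise in ob and no called change in b6j, 33 had a called fall in b6j and no called change in ob, 41 rose in both and 13 moved in opposite directions. Of the 183 with a lower interaction, 118 had a called fall in ob and no called change in b6j, 21 a called rise in b6j and no called change in ob, 10 rose in both, 21 fell in both and 13 moved in opposite directions. Without ob replicate 5 this held for 38.7% of genes with a higher interaction and for 51.4% of those with a lower one. Of the 403 genes with a higher interaction that were tested in both fits, 156 then had a called response in ob alone and 117 in b6j alone, and of the 354 with a lower one 182 and 58.

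Genes with a higher interaction were mostly lower in untreated ob, and those with a lower interaction mostly higher. Of the 193, 187 were lower in ob than in b6j when untreated, with a median log2 difference (ob minus b6j) of -0.51 that became 0.20 at 2 mg/kg. Of the 183, 165 were higher in untreated ob, and the median went from 0.41 to -0.24. The difference between genotypes was called in untreated kidneys and not at 2 mg/kg for 118 and 85 of these genes, and at 2 mg/kg and not before for 47 and 67. It was smaller in size at 2 mg/kg than before for 71.5% and 56.8% of them, against 48.6% of all tested genes. The interaction and the untreated difference share the control libraries, so these counts describe the called genes and carry no test. Without ob replicate 5 the shares were 76.7% and 59.3%, against 56.6% of all genes. The share for genes with a lower interaction is near that of all genes, and nothing is read from it.

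**Figure D2:**
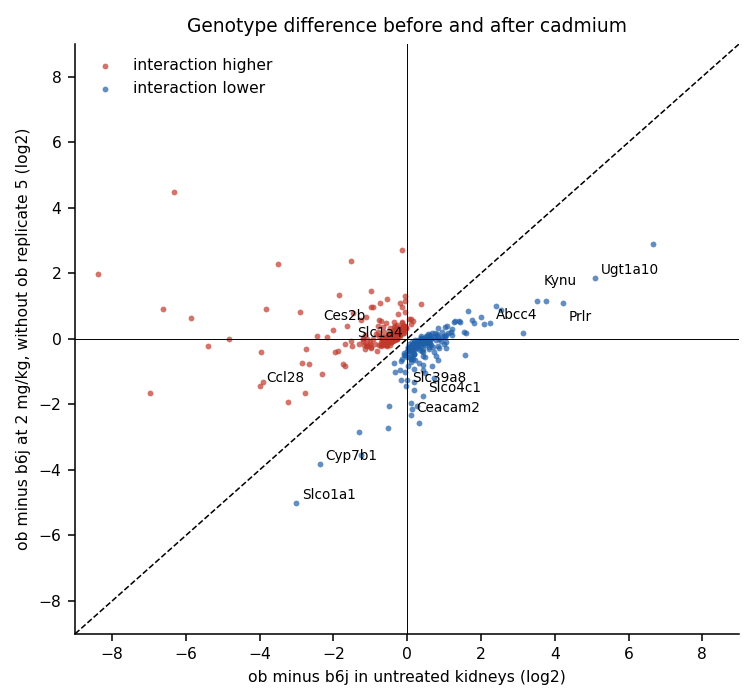
Log2 difference ob minus b6j in untreated kidneys (horizontal) and at 2 mg/kg (vertical), without ob replicate 5, for the 358 genes called in both fits. Points near the horizontal zero line differed before cadmium and little after it (Abcc4, Slc1a4, Ces2b), and those near the vertical zero line differed little before and more at 2 mg/kg (Slc39a8, Slco4c1, Ceacam2).

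The central metal response was large in both genotypes, and its difference was not called with edgeR. The metallothionein gene Mt1 held far more reads than its close copy Mt2. Mt1 lay at 91.0 to 150 CPM (median 106) in untreated ob and 3940 to 5400 (median 4310) in ob at 2 mg/kg. In b6j it lay at 94.3 to 141 (median 113) when untreated and 2480 to 3870 (median 2890) at 2 mg/kg. The treated groups did not overlap with each other, and the untreated groups did. Mt1 rose by 5.31 ± 0.16 (log2 ± SE) in ob and 4.73 in b6j, and the interaction of 0.58 ± 0.19 was not called (adjusted p = 0.0948, or 0.53 and 0.0893 without replicate 5). With DESeq2 (adjusted p = 0.0364) and limma-voom (adjusted p = 0.035) it was. Mt2 (0.59 ± 0.38, adjusted p = 0.439), Gclc, which makes the first enzyme of glutathione synthesis (0.49 ± 0.26, adjusted p = 0.328), and the zinc importer Slc39a10 (0.21 ± 0.18, adjusted p = 0.577) were not called either. Mt2 had few reads in untreated kidneys, 0.232 to 0.977 CPM in ob and 0.181 to 0.839 CPM in b6j. At 2 mg/kg it lay at 26 to 38.6 CPM in ob and 13.6 to 26 CPM in b6j. Reads of Mt1 and Mt2 may be split or shared, so the level of Mt2 is uncertain.

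Hmox1, which breaks down heme, was the exception among these. It lay at 23.0 to 32.9 CPM in untreated ob and 37.7 to 71.6 in untreated b6j, which did not overlap, and at 1010 to 2080 and 903 to 1830 CPM at 2 mg/kg, which did. The interaction was 0.90 ± 0.23 (adjusted p = 0.0289, or 1.00 and 0.0057 without replicate 5). The call was lost in 4 of the 24 fits that each left out 1 library, b6j replicate 4 when untreated (0.74) among them.

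Of 14 tested genes for metallothionein and zinc transport 1 had a higher and 1 a lower interaction, and both are named here although they were chosen after their values were seen. Slc39a8 encodes ZIP8, an importer of zinc, manganese and cadmium (GRCm38 chromosome 3, 135825279 to 135888572). It lay at 53.4 to 76.7 CPM (median 65.3) in untreated ob and 49.3 to 84.1 (median 68.8) in untreated b6j, and at 55.5 to 78.4 (median 73.5) in treated b6j. In treated ob it lay at 10.6 to 30.9 (median 24.3), below every other library of the 4 groups. The fall in ob was -1.48 and the change in b6j 0.08 (adjusted p = 0.783), an interaction of -1.56 ± 0.25 (adjusted p = 0.00043, or -1.40 and 5.92e-05 without replicate 5). At 0.5 mg/kg the median was 51.4 CPM in ob and 73.2 CPM in b6j. The zinc exporter Slc30a2 went the other way, with medians of 49.2 and 117 CPM in ob and 101 and 120 CPM in b6j (interaction 0.93 ± 0.19, adjusted p = 0.00722).

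**Figure D3:**
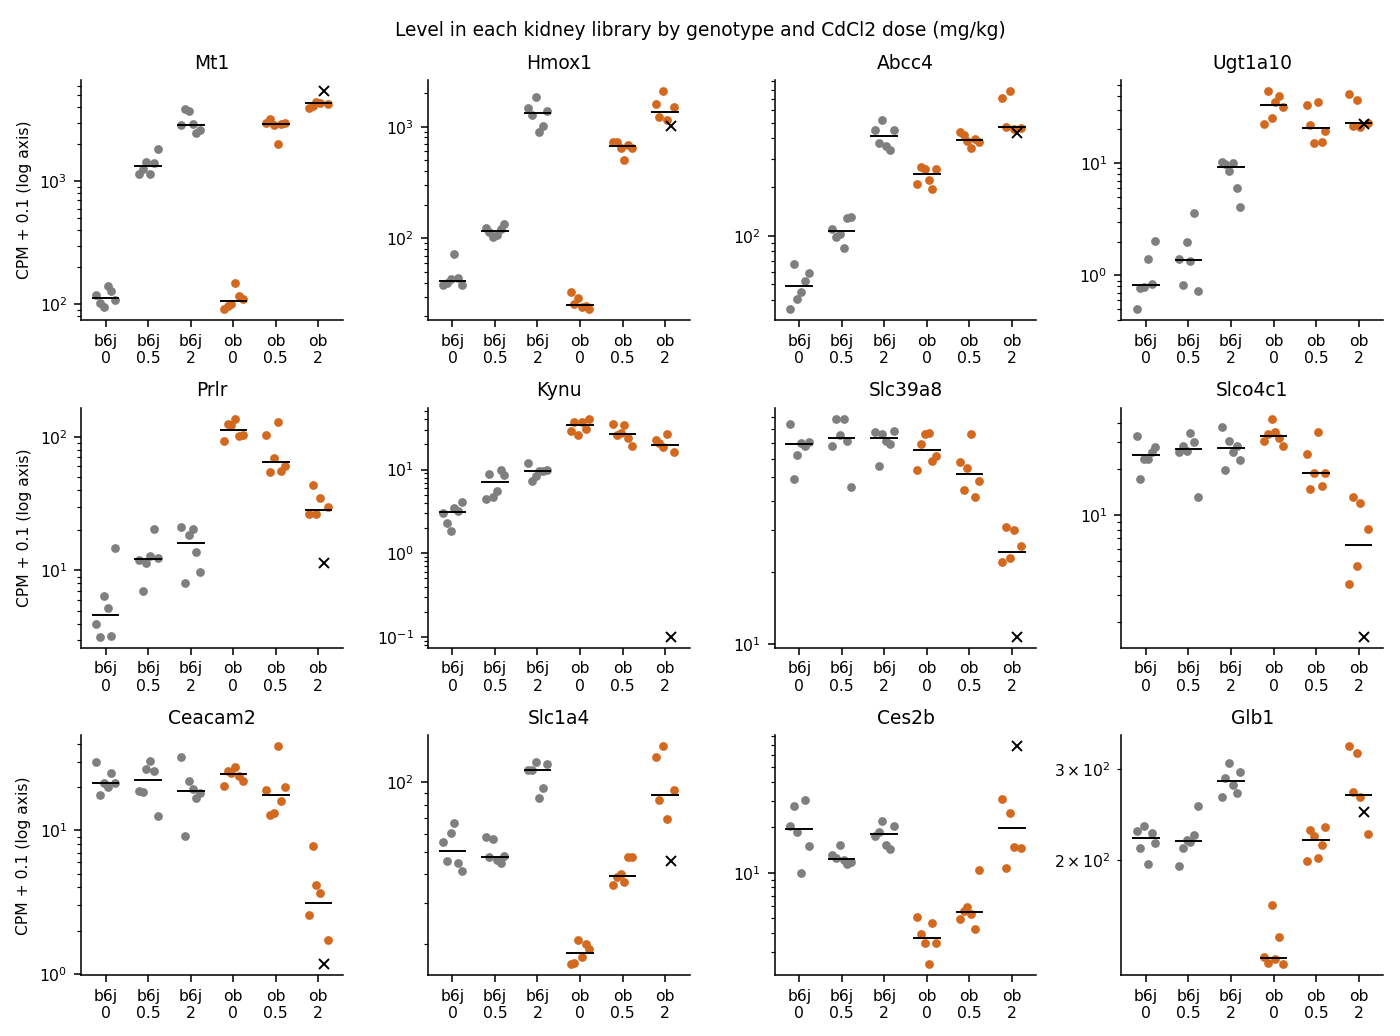
CPM + 0.1 on a log axis in each library for 12 genes, by genotype and CdCl2 dose (0, 0.5 or 2 mg/kg), with b6j in grey, ob in orange, a bar at each median of 6 libraries and a cross for ob replicate 5 at 2 mg/kg. Abcc4 and Ugt1a10 start apart and draw together, Slc39a8, Slco4c1 and Ceacam2 start together and fall in ob, and Slc1a4, Ces2b and Glb1 start low in ob and draw level.

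Abcc4, Aldh1a1, Gsta2 and Cbr1 were higher in untreated ob and rose by a smaller fold there than in b6j. By the medians below, the gain in CPM was smaller in ob for Abcc4 but not for Aldh1a1, Gsta2 or Cbr1. Abcc4 encodes MRP4, an exporter of organic anions and conjugates (chromosome 14, 118482692 to 118706219), and its promoter is printed above. It lay at 195 to 265 CPM (median 240) in untreated ob, 432 to 783 (median 467) in ob at 2 mg/kg, 35.0 to 66.6 (median 48.5) in untreated b6j and 340 to 523 (median 412) in b6j at 2 mg/kg. The untreated groups were wholly apart and the treated groups overlapped. It rose by 1.24 in ob and by 3.07 in b6j, an interaction of -1.83 ± 0.21 (adjusted p = 3.72e-06, or -1.76 and 1.79e-06 without replicate 5).

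Aldh1a1, a retinal and aldehyde dehydrogenase chosen after its values were seen, behaved alike. Its medians were 54 and 432 CPM in ob and 9.06 and 240 CPM in b6j (interaction -1.65 ± 0.19, adjusted p = 3.72e-06). The glutathione transferase Gsta2 had medians of 453 and 1250 CPM in ob and 139 and 762 CPM in b6j (-0.91 ± 0.20, adjusted p = 0.0109), and the carbonyl reductase Cbr1 102 and 475 against 40.2 and 346 CPM (-0.74 ± 0.18, adjusted p = 0.0264). The Cbr1 call was lost in 4 of 24 fits without a library. Both were still higher in ob at 2 mg/kg, by 0.75 and 0.55. Of 21 tested glutathione transferases 10 were higher in untreated ob and 0 lower, against 1199 higher and 1623 lower of all 18180 genes. The interaction was lower for 2 (9.52%, or 3 and 14.3% without replicate 5) and higher for 0, with a median of -0.02.

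Of 26 tested NRF2 targets and glutathione genes, 22 rose in ob and 17 in b6j. The interaction was called for 4, 2 each way (15.4%, against 2.07% of all genes). Without replicate 5 it was called higher for 5 and lower for 2 (26.9%, against 4.12%). With all libraries 14 of the 26 had an unadjusted p below 0.05, against 3095 of all 18180 genes. The median interaction of the 26 was 0.35, against 0.003 over all genes. The 2 called higher with all libraries were G6pdx, which feeds NADPH to glutathione recycling, and the cystine transporter Slc7a11. G6pdx had medians of 36.5 and 56.3 CPM in ob and 38.5 and 43.8 CPM in b6j (0.55 ± 0.14, adjusted p = 0.0355, lost in 7 of 24 fits without a library). Slc7a11 lay at 0 to 0.129 CPM in untreated ob and 0 to 0.994 in untreated b6j, against 5.96 to 64.4 and 5.84 to 14.1 CPM at 2 mg/kg. Since 3 reads are worth 0.085 to 0.112 CPM, its fitted interaction of 4.30 has no firm size, and it was not called with limma-voom (adjusted p = 0.367).

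UDP-glucuronosyltransferases of the Ugt1a locus attach glucuronic acid to drugs and bilirubin, and Ugt1a2 and Ugt1a10 were among the 10 genes with the largest lower interactions at a mean of at least 5 CPM. Ugt1a10 lay at 22.2 to 43.8 CPM in untreated ob and 21 to 41 in ob at 2 mg/kg, and at 0.4 to 1.91 in untreated b6j and 3.96 to 10.1 in b6j at 2 mg/kg. The ob groups overlapped and the b6j groups did not. It rose in b6j by 3.06 and had no called change in ob (-0.25, adjusted p = 0.511), an interaction of -3.31 ± 0.46 (adjusted p = 4.79e-05, or -3.25 and 3.04e-05 without replicate 5). Ugt1a2 rose in both, from medians of 25.8 to 111 CPM in ob and 0.179 to 15.5 CPM in b6j (-4.03 ± 0.88, adjusted p = 0.0101, or -3.77 and 0.004 without replicate 5, which held 10 CPM), and was not called with limma-voom (adjusted p = 0.228). Ugt1a members share exons, so the split of reads between them is uncertain. These were 2 of 18 tested members of the family, with 0 higher, and the family median was -0.43, or -0.20 without replicate 5.

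Of 27 tested transporters of organic anions, cations and drugs, 13 fell and 2 rose in ob, and 7 fell and 6 rose in b6j. The interaction was lower for 4 and higher for 0 (14.8% called), or lower for 6 and higher for 3 without replicate 5 (33.3%). Slco4c1, which carries digoxin and uremic toxins at the basolateral side of the proximal tubule, lay at 27.9 to 42.3 CPM (median 32.6) in untreated ob, 1.49 to 12.9 (median 6.26) in ob at 2 mg/kg, 17.1 to 32.8 (median 24.4) in untreated b6j and 19.6 to 37.2 (median 27) in b6j at 2 mg/kg. Treated ob libraries lay below all others. The interaction was -2.39 ± 0.41 (adjusted p = 0.00114, or -2.17 and 0.000137 without replicate 5). Abcb1a, a P-glycoprotein drug exporter, had medians of 19.7 and 7.79 CPM in ob and 5.87 and 11.1 CPM in b6j, a fall in ob and a rise in b6j (-1.93 ± 0.25, adjusted p = 2.68e-05). Its close copy Abcb1b (-1.33 ± 0.36, adjusted p = 0.0441, or -1.62 without replicate 5) lost the call in 18 of 24 fits without a library.

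Slco1a1, an organic anion carrier, had medians of 45.7 and 5.38 CPM in ob and 426 and 228 CPM in b6j. It fell in ob by 3.14 on the log2 scale, and the change in b6j was not called (-0.91, adjusted p = 0.104). The interaction of -2.23 ± 0.59 (adjusted p = 0.0385, or -1.99 and 0.0249 without replicate 5) was lost in 12 of 24 fits without a library and with limma-voom (adjusted p = 0.197).

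Other genes fell in ob alone by their own tests. Ceacam2, an adhesion molecule, lay at 20.2 to 27.4 CPM in untreated ob and 1.06 to 7.72 in ob at 2 mg/kg, against 17.6 to 29.8 and 9.05 to 32.3 CPM in b6j. The treated ob libraries lay below every other library (-2.63 ± 0.43, adjusted p = 0.000655, or -2.44 without replicate 5). Mettl7a2 had medians of 77.5 and 8.69 CPM in ob and 65.8 and 52.2 CPM in b6j (-2.55 ± 0.49, adjusted p = 0.0031, or -2.30 and 9.32e-05 without replicate 5, which held 0.622 CPM).

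The prolactin receptor gene Prlr moved in opposite directions (chromosome 15, 10177238 to 10349180). Prolactin acts on ion transport and, with growth hormone, signals through STAT5. Prlr lay at 93.5 to 136 CPM (median 112) in untreated ob, 11.3 to 43.8 (median 28.1) in ob at 2 mg/kg, 3.09 to 14.7 (median 4.52) in untreated b6j and 8.01 to 20.9 (median 16) in b6j at 2 mg/kg. The untreated groups were far apart, and the treated ones overlapped through replicate 5 of the ob group, at 11.3 CPM. It fell in ob by 1.98 and rose in b6j by 1.32, an interaction of -3.31 ± 0.45 (adjusted p = 4.75e-05, or -3.13 and 1.18e-05 without replicate 5). At 0.5 mg/kg the medians were 64.7 and 12.1 CPM, between those of the untreated and 2 mg/kg groups in each genotype. Among 14 tested genes for prolactin, growth hormone and leptin receptor signalling the other called member was Igfbp3, which binds insulin-like growth factors, with medians of 286 and 163 CPM in ob and 150 and 137 CPM in b6j (-0.75 ± 0.16, adjusted p = 0.00669). Socs2, a feedback inhibitor of the same pathway, was not called (1.56 ± 0.59, adjusted p = 0.155, or 0.55 without replicate 5).

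Kynu, the kynureninase of tryptophan breakdown, lay at 26.0 to 40.5 CPM (median 33.8) in untreated ob and 1.75 to 3.98 (median 3) in untreated b6j, and at 7.13 to 12 (median 9.62) in treated b6j. In treated ob it had no read in replicate 5 and 16.3 to 26.6 CPM in the other 5 libraries. The rise in b6j was 1.71, and the change in ob of -0.94 was not called (adjusted p = 0.0587) but was at -0.67 without replicate 5 (adjusted p = 0.00302). The interaction was -2.65 ± 0.59 (adjusted p = 0.0116), or -2.38 (adjusted p = 1.08e-06) without that library. Of 22 tested genes of tryptophan, methionine and glycine metabolism it was the 1 called with all libraries, and without replicate 5 there were 4, all lower, with Kmo at -0.73. The amino acid transporter Slc7a12 had medians of 87.4 and 17.8 CPM in ob, where it fell, and 5.65 and 11.5 CPM in b6j (-2.90 ± 0.71, adjusted p = 0.0233, or -2.63 and 0.00277 without replicate 5).

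Of 16 tested androgen-dependent kidney genes 12 were lower in untreated ob than in untreated b6j, against 1623 of all 18180 genes. The interaction was higher for 2 and lower for 2, Slco1a1 among the lower (25% called, against 2.07% of all genes). Cyp4a12a, a maker of the vasoactive lipid 20-HETE with close copies beside it, fell in b6j from a median of 288 to 79.8 CPM and had medians of 27.5 and 20.9 CPM in ob (1.43 ± 0.34, adjusted p = 0.0201). Hsd17b11, a steroid and lipid droplet dehydrogenase, fell in b6j from 404 to 250 CPM and had medians of 121 and 156 CPM in ob (0.94 ± 0.20, adjusted p = 0.00812). The oxysterol hydroxylase Cyp7b1 fell in ob from a median of 32.1 to 12.9 CPM and had medians of 172 and 209 CPM in b6j, and its genotype difference went from -2.36 to -4.04 (-1.68 ± 0.40, adjusted p = 0.0193).

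A second set of genes started low in ob and rose there. Slc1a4, a carrier of alanine, serine and cysteine, lay at 16.2 to 20.7 CPM (median 18.3) in untreated ob and 41.4 to 66.8 (median 50.5) in untreated b6j, which did not overlap. At 2 mg/kg it lay at 45.8 to 143 (median 88.1) and 85.2 to 122 (median 113), which did. The rise was 2.36 in ob and 1.04 in b6j (interaction 1.32 ± 0.23, adjusted p = 0.00144, or 1.47 and 1.18e-05 without replicate 5). The carboxylesterase Ces2b lay at 2.37 to 4.99 CPM in untreated ob and at 9.82 to 30.1 in untreated b6j, then at 10.6 to 68.5 and 14.3 to 21.8. It rose in ob by 2.87 with no called change in b6j (-0.17, adjusted p = 0.732), an interaction of 3.04 ± 0.44 (adjusted p = 9.03e-05, or 2.54 and 1.18e-05 without replicate 5).

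The brush border aminopeptidase Anpep had medians of 108 and 189 CPM in ob and 177 and 180 CPM in b6j (0.74 ± 0.12, adjusted p = 0.00081). With all libraries it was the 1 called gene of 36 proximal tubule genes (2.78%, near the 2.07% of all genes). Without replicate 5, 2 were called higher and 2 lower (11.1%, against 4.12%). The prohormone processing enzyme Cpe had medians of 26.4 and 81.9 CPM in ob and 139 and 165 CPM in b6j (2.04 ± 0.43, adjusted p = 0.00734, or 1.22 and 0.000402 without replicate 5, which held 447 CPM). Mas1, the receptor for angiotensin (1-7), had medians of 0.378 and 18.4 CPM in ob and 2.14 and 20.0 CPM in b6j (1.97 ± 0.53, adjusted p = 0.0413, or 2.22 and 0.000129 without replicate 5). Mas1 lost the call in 13 of 24 fits without a library. Popdc3, a muscle-type membrane protein, had 3 reads in 1 untreated ob library and none in the other 5, against 9.94 to 37.0 CPM in ob at 2 mg/kg. Its fitted interaction of 5.24 (7.52 without ob replicate 4 of the untreated group) has no firm size for that reason, and it was not called with limma-voom (adjusted p = 0.0536).

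Chaperones with the same pattern were Hsp90aa1 and Hsp90ab1, the cytosolic HSP90 pair and the 2 called genes of 19 heat shock chaperones (10.5%), with 0 lower. Both were chosen after their values were seen. Hsp90aa1 rose by 0.95 in ob and 0.39 in b6j (0.56 ± 0.14, adjusted p = 0.0289), and Hsp90ab1 rose by 0.47 in ob with no called change in b6j (0.48 ± 0.13, adjusted p = 0.0408). The calls were lost in 7 and 12 of 24 fits without a library. Of 31 proteasome subunits 2 were called (6.45%, against 2.07% of all genes), Psmb3 (0.46 ± 0.11, adjusted p = 0.0264) and Psmc4 (0.43 ± 0.11, adjusted p = 0.0343), both higher. Without replicate 5, 3 were called higher (9.68%, against 4.12%), and the median interaction went from 0.28 to 0.16. The median proteasome response in ob was 0.11, or -0.03 without replicate 5. The summed proteasome level was 5290 CPM in that library and 2940 to 3380 CPM in the rest of its group. Scaling libraries by size alone ended the calls of both HSP90 genes, Psmb3, Psmc4, G6pdx, Ctsd and Zmat3, at adjusted p of 0.0548 to 0.0746.

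A few lysosome genes rose further in ob than in b6j. Of 30 tested lysosome and autophagy genes, 19 rose in ob and 14 in b6j, and 3 had a higher interaction in either fit and 0 a lower one, with a median of 0.18 over the list (0.11 without replicate 5). Glb1, the lysosomal beta-galactosidase, lay at 126 to 164 CPM (median 129) in untreated ob and 197 to 233 (median 221) in untreated b6j, and at 225 to 331 (median 267) and 264 to 307 (median 284) at 2 mg/kg. The untreated groups did not overlap, and the treated ones did. It rose by 1.02 in ob and 0.38 in b6j (0.64 ± 0.11, adjusted p = 0.00128, or 0.68 and 0.000141 without replicate 5). Psap, the precursor of the saposins that assist lysosomal lipid breakdown, was at 0.46 ± 0.11 (adjusted p = 0.0204). The protease gene Ctsd was at 0.67 ± 0.19 (adjusted p = 0.0479, or 0.43 and 0.014 without replicate 5), and its call was lost in 16 of 24 fits without a library.

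The chemokine gene Ccl28 moved in b6j. It lay at 18.9 to 70.3 CPM (median 30.9) in untreated b6j and 2.66 to 6.71 (median 5.3) in b6j at 2 mg/kg, with medians of 2.5 and 2.02 CPM in ob. The b6j groups were wholly apart and the ob groups overlapped. The fall in b6j was -2.86, and the interaction was 2.67 ± 0.42 (adjusted p = 0.000359, or 2.56 and 0.00026 without replicate 5). Zbtb16, a transcription factor, fell in b6j from a median of 22.4 to 9.81 CPM and rose in ob from 10.9 to 21.5 CPM (2.57 ± 0.48, adjusted p = 0.00242, or 1.95 and 0.00102 without replicate 5, which held 89.6 CPM). Coro2a, an actin-binding protein, was at 1.88 ± 0.45 (adjusted p = 0.0207, or 1.35 and 0.0229).

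Most endothelial genes and some podocyte genes fell in ob kidneys, and none had a called change in b6j. Of 15 tested endothelial genes, 13 fell in ob and 0 rose, 0 changed in b6j, 9 were higher in untreated ob than in untreated b6j, and none differed between the genotypes at 2 mg/kg. The interaction was lower for 5 of them (Kdr, Flt1, Plvap, Pecam1 and Tek, or 6 without replicate 5) and higher for 0, with a median of -0.46 (-0.34 without replicate 5). Of 10 podocyte genes, 4 fell in ob, 0 changed in b6j, 7 were higher in untreated ob and 1 was higher in ob at 2 mg/kg. Their median genotype difference was 0.57 when untreated and 0.1 at 2 mg/kg, or 0.24 at 2 mg/kg without replicate 5. The interaction was lower for 2 of them (4 without replicate 5), with a median of -0.50. Over all 18180 genes, 3268 fell in ob, 4305 (23.7%) changed in b6j, 1199 were higher in untreated ob and 2987 differed at 2 mg/kg. The interaction was called for 2.07% of all genes. At the b6j share a list of 10 can hold no called change, and nothing is read from its absence in podocyte genes. The podocyte median interaction was -0.35 without replicate 5. Many nephron genes fell as well, while 19 of 22 macrophage genes rose in ob. Of 24 loop, distal and collecting duct genes 16 fell in ob and 8 in b6j and 0 rose in either, with a median response of -0.58 in ob and -0.23 in b6j, and 0 were called by the interaction test of edgeR (7 at an unadjusted p below 0.05, 0 by DESeq2, 3 by limma-voom and 1 by edgeR without replicate 5), with a median interaction of -0.32. Of 36 proximal tubule genes 18 fell and 2 rose in ob, and 10 fell and 1 rose in b6j. Their median interaction was -0.04, or 0.08 without replicate 5. The part of these other cells in the endothelial and podocyte values was not tested.

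Kdr, the main receptor for vascular endothelial growth factor, lay at 77.4 to 88.3 CPM (median 83.1) in untreated ob, 26.5 to 49.1 (median 38.5) in ob at 2 mg/kg, 43.5 to 69.5 (median 54.1) in untreated b6j and 35.7 to 50.1 (median 46.6) in b6j at 2 mg/kg. Untreated ob libraries lay above every other library. The fall in ob was -1.07 and the change in b6j -0.27 (adjusted p = 0.0703), an interaction of -0.80 ± 0.15 (adjusted p = 0.0031, or -0.70 and 0.00118 without replicate 5). Flt1, a second receptor of that factor, was at -0.46 ± 0.11 (adjusted p = 0.0179), and Plvap, of fenestrated endothelium, at -0.52 ± 0.13 (adjusted p = 0.0252, lost in 3 of 24 fits without a library). Pecam1 (-0.50 ± 0.14, adjusted p = 0.0473) and Tek, the angiopoietin receptor (-0.80, adjusted p = 0.049), stood close to the threshold, and Pecam1 was lost in 16 of 24. Tek was named after its value was seen.

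Podxl, the charged coat protein of podocytes, lay at 237 to 278 CPM (median 242) in untreated ob, 121 to 161 (median 157) in ob at 2 mg/kg, 145 to 193 (median 156) in untreated b6j and 122 to 176 (median 161) in b6j at 2 mg/kg. Here too untreated ob stood above all other libraries, which overlapped with each other. The interaction was -0.64 ± 0.11 (adjusted p = 0.00103, or -0.58 and 0.000426 without replicate 5), and that of nephrin, Nphs1, was -0.83 ± 0.21 (adjusted p = 0.0264, lost in 5 of 24 fits without a library). In whole kidney, fewer cells of a type and less RNA per cell cannot be told apart.

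**Figure D4:**
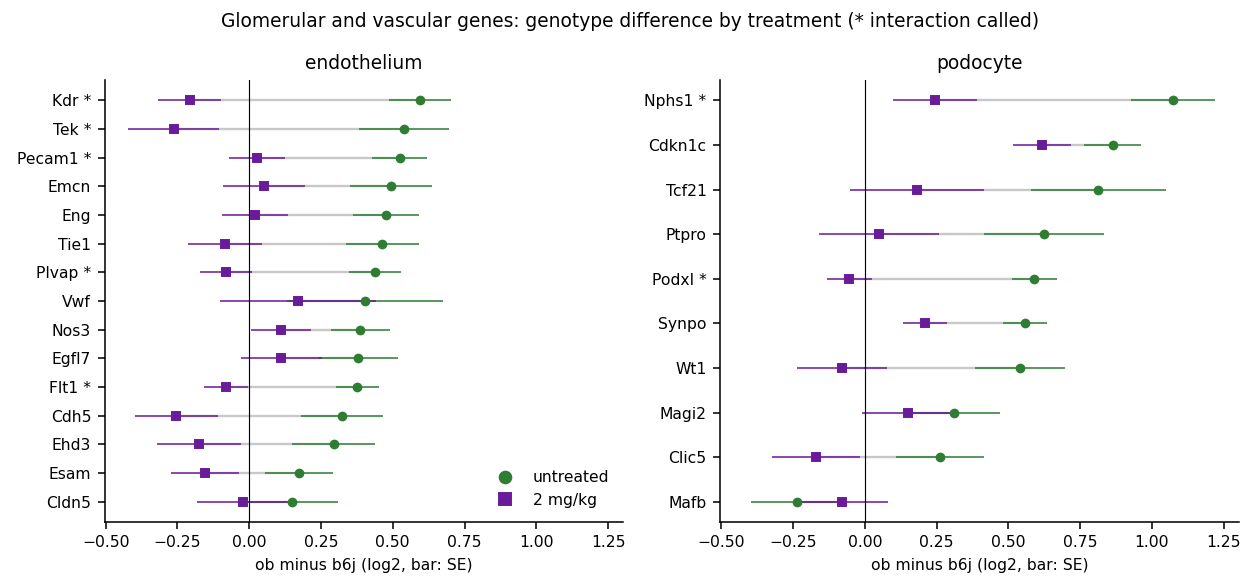
Log2 difference ob minus b6j (± SE) for 15 endothelial and 10 podocyte genes in untreated kidneys (circles) and at 2 mg/kg (squares), with all libraries. Stars mark the 5 and 2 genes with a called interaction, whose circles lie to the right of 0 and whose squares lie to the left of their circles.

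Injury genes responded in both genotypes, and part of their difference rested on single libraries. Of 30 tested tubular injury and repair genes 26 rose in ob and 16 in b6j, and 5 had a higher interaction (16.7%, against 2.07% of all genes). Without replicate 5, 4 were higher and 2 lower (20%, against 4.12%), the lower being the fibrinogen genes Fga and Fgg. The median interaction of the list went from 0.61 to 0.11 without that library. The summed level of the list was 20900 CPM in replicate 5 and at most 5210 CPM in the rest of its group. Havcr1, the gene of the tubular injury molecule KIM-1, lay at 0.515 to 1.17 CPM (median 0.798) in untreated ob, 63.7 to 529 (median 133) in ob at 2 mg/kg, 2.15 to 181 (median 5.44) in untreated b6j and 112 to 232 (median 152) in b6j at 2 mg/kg. The treated groups overlapped. Untreated ob lay below every other library, and the value of 181 CPM was that of untreated b6j replicate 4. The interaction was 5.73 ± 1.13 (adjusted p = 0.00446), 5.18 (adjusted p = 0.00517) without ob replicate 5 and 3.13, still called, without that b6j library. With limma-voom it was not called (adjusted p = 0.249).

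Clu, an extracellular chaperone raised in damaged tubules, had medians of 266 and 529 CPM in ob and 265 and 303 CPM in b6j (1.49 ± 0.36, adjusted p = 0.0205, or 0.87 and 0.00344 without replicate 5, which held 2320 CPM). Tnfrsf12a, the receptor of TWEAK, had medians of 11.4 and 75.5 CPM in ob and 22.5 and 74.1 CPM in b6j (1.86 ± 0.45, adjusted p = 0.0219, or 1.22 and 0.0205). It was not called with limma-voom (adjusted p = 0.0722). Areg, a ligand of the epidermal growth factor receptor, had no read in untreated ob and 0.883 to 7.53 CPM in ob at 2 mg/kg. Its fitted interaction of 7.36 (6.21 without untreated b6j replicate 4) depends on the prior count of the model and is no measure of size, and it was not called with limma-voom (adjusted p = 0.0645). Of 20 p53 targets, 16 rose in ob and 15 in b6j, with a median interaction of 0.7, or 0.22 without replicate 5. The interaction was called higher for 2 (10%, or 15% without replicate 5). They were the cyclin gene Ccng1 (0.75 ± 0.18, adjusted p = 0.0201) and Zmat3 (0.89 ± 0.24, adjusted p = 0.044, or 0.51 without replicate 5, lost in 17 of 24 fits without a library).

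Lcn2 and Pdk4 owed their calls to replicate 5 of the treated ob group. Lcn2, which encodes the injury marker NGAL, was at 1560 CPM in that library and 13.9 CPM at the lowest of its group (median 19.9), against 10.7 to 16.9 CPM in treated b6j. Its interaction of 4.38 ± 1.08 (adjusted p = 0.0252) became 0.72 ± 0.28 (adjusted p = 0.153) without the library. Pdk4, which holds back glucose oxidation in fasting, was at 2150 CPM there and had a group median of 28.7 CPM, and its interaction of 4.87 (adjusted p = 0.0122) became 1.07 (adjusted p = 0.098). Maff (1.70 to 1.08) and Gprc5a (1.33 to 0.98) lost their calls more narrowly, at adjusted p of 0.0547 and 0.0567.

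Some fatty acid genes were called only without the same library. Acot1, a fatty acyl-CoA thioesterase chosen after its values were seen, lay at 72.1 to 101 CPM in untreated ob, 58.8 to 107 in untreated b6j and 61.3 to 120 in treated b6j. In treated ob it was at 453 CPM in replicate 5 and 29.6 to 53.7 CPM in the other 5 libraries. Its interaction turned from 0.12 (adjusted p = 0.936) to -1.24 ± 0.23 (adjusted p = 0.000984) without that library. Of 31 fatty acid oxidation and PPAR-alpha targets, 1 was higher and 0 lower with all libraries, and 0 higher and 3 lower without it, Cyp4a10 (-1.21) and Cyp4a14 (-2.28) being the others, named after their values were seen.

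**Figure D5:**
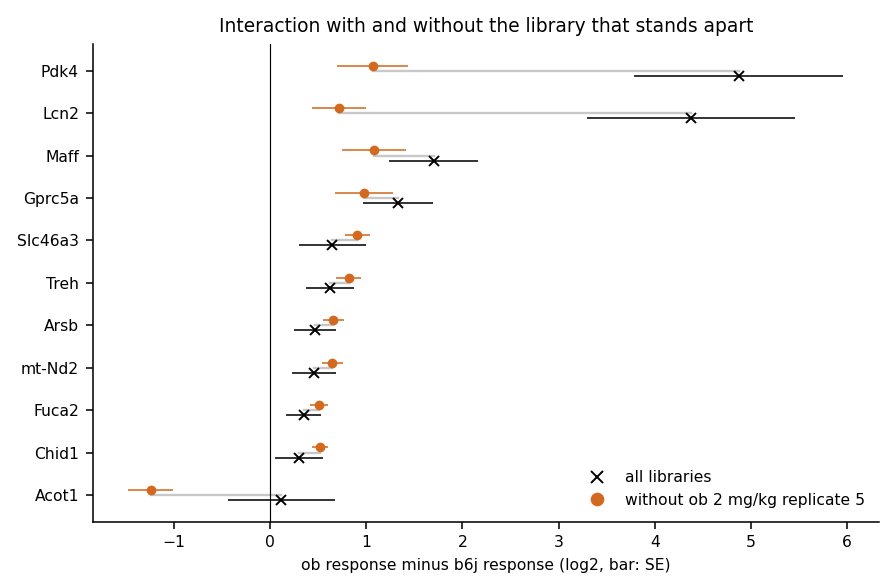
Interaction (log2 ± SE) with all libraries (crosses) and without ob replicate 5 at 2 mg/kg (circles) for 11 genes that lost or gained a call. Lcn2 and Pdk4 move toward 0, Acot1 moves to below -1, and the 6 genes from Slc46a3 to Chid1 shift little while their error bars shrink.

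Genes called only without that library included 6 with small differences and tight replicates. Slc46a3, a lysosomal carrier, was at 3.42 CPM in replicate 5 and had medians of 16.8 and 35.2 CPM in ob and 40.6 and 49.4 CPM in b6j (0.65 and adjusted p = 0.341 with it, 0.91 ± 0.13 and 3.96e-05 without). The mitochondrial subunit gene mt-Nd2 was at 3230 CPM there, against medians of 5200 and 11000 CPM in ob and 7290 and 9610 CPM in b6j (0.65 ± 0.11, adjusted p = 0.000337 without it). Of 13 genes of the mitochondrial genome 0 were called with all libraries by edgeR (1 at an unadjusted p below 0.05, 1 by DESeq2 and 7 by limma-voom) and 4, all higher, without replicate 5. Arsb, which encodes the lysosomal arylsulfatase B (0.66 ± 0.11), the fucosidase gene Fuca2 (0.51 ± 0.09), Chid1 (0.52 ± 0.08) and the trehalase gene Treh (0.82 ± 0.13) were higher in the same fit.

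No interaction was called in 10 lists with 141 tested genes in either fit, among them interferon response, macrophage, lymphocyte and neutrophil, extracellular matrix, NF-kB, adipocyte, adrenal and blood cell genes. Of the 141, 16 had an unadjusted p below 0.05, 0 were called by DESeq2 and 2 by limma-voom. Over all 18180 genes 3095 had an unadjusted p below 0.05, and 2.07% were called (4.12% without replicate 5). At such shares a short list can hold no call, and nothing is read from its absence. Interferon response genes rose in both genotypes, 22 of 28 in ob and 18 of 28 in b6j, with a median interaction of 0.19, and macrophage genes rose for 19 and 14 of 22, with a median of 0.14, or 0.32 without replicate 5. A p above the threshold does not show that these genes responded alike.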

How the data were processed

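Kidney RNA was sequenced in 36 libraries. Reads were trimmed with Trimmomatic and aligned with STAR, per the submitters' processing notes. The deposited per-sample files hold raw counts per gene made by the authors with featureCounts 1.4.6-p2 on GRCm38 with Ensembl 96, without strand, per the file headers. All 55536 gene identifiers were matched to GENCODE M21 for symbols. The 36 sample columns of a joined table were not used.

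Counts were analysed with R 4.3.3 and edgeR 4.0.16: filterByExpr (18180 genes), trimmed mean of M values, 6 group means over all 36 libraries, quasi-likelihood tests, and Benjamini-Hochberg adjustment over all tested genes at 0.05. SE is the log2 value divided by the root of F. CPM used the scaled library sizes, and 3 reads were worth 0.085 to 0.112 CPM. The fit was tested on simulated counts.

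Genes named were 8 set by name, the 10 largest each way among calls in both fits with a mean of at least 5 CPM, 4 called only with and 6 only without ob replicate 5 at 2 mg/kg, and up to 4 of each described list by p. Those chosen after their values were seen are marked in the text. The members and the 40 gene lists were chosen with earlier results of these data known. A few genes are not reported here and were left out of the lists. Alternatives were relative log expression or library size alone as scaling, DESeq2 1.42.0, limma 3.58.1 voom with sample weights, no filter, a stricter filter, the 4 groups alone, a replicate block and each of 24 libraries left out. The 4 groups alone without ob replicate 5 at 2 mg/kg was added after seeing the data. Replicate numbers did not pair the libraries. Reads of close copies (Mt1 and Mt2, Ugt1a, Abcb1a and Abcb1b, Gst, Cyp4a, Ces2 and Mettl7a genes) and of overlapping genes on opposite strands may be split or shared.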

Additional observations from a re-analysis of the deposited data

Results flagged for a closer look

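Libraries far from the other 5 of their group were looked for in 156 groups of 6 values (levels as log2 of CPM + 0.1) and found in 26. Chance gives about 1 in 20, but 10 of the genes searched were named because leaving out ob replicate 5 at 2 mg/kg changed their call, so the number found cannot be read against that rate. Most came from ob replicate 5 at 2 mg/kg, which lay at 133.42 and 126.87 on the first 2 principal components. It was above the rest of its group for Lcn2 (1560 CPM), Pdk4 (2150 CPM), Cpe (447 CPM), Zbtb16 (89.6 CPM) and Popdc3 (37 CPM). It was below the rest for Slc7a12 (0.187 CPM), Kynu (0 CPM), Mas1 (1.68 CPM), Ugt1a2 (10 CPM), Slc46a3 (3.42 CPM), Chid1 (10.2 CPM), Treh (33.3 CPM), Arsb (45.8 CPM), Fuca2 (137 CPM) and mt-Nd2 (3230 CPM). Untreated b6j replicate 4 stood apart for Hmox1 (71.6 CPM), Tnfrsf12a (53.1 CPM) and Chid1 (38.8 CPM). Among untreated ob libraries, replicate 6 stood apart for Coro2a (9.47 CPM) and Pdk4 (36.4 CPM), replicate 3 for Treh (102 CPM) and replicate 4 for Popdc3 (0.0888 CPM). In b6j at 2 mg/kg, replicate 2 stood apart for Slc7a12 (1.78 CPM) and replicate 6 for Abcb1a (6.2 CPM).

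The response differed between genotypes by the interaction test of edgeR for 376 genes. Among the genes named by rule, the log2 interaction was positive for Havcr1 (5.73), Popdc3 (5.24), Pdk4 (4.87), Lcn2 (4.38), Slc7a11 (4.3), Ces2b (3.04), Ccl28 (2.67), Zbtb16 (2.57), Cpe (2.04), Mas1 (1.97), Coro2a (1.88), Tnfrsf12a (1.86), Maff (1.7), Gprc5a (1.33) and Hmox1 (0.9). It was negative for Ugt1a2 (-4.03), Prlr (-3.31), Ugt1a10 (-3.31), Slc7a12 (-2.9), Kynu (-2.65), Ceacam2 (-2.63), Mettl7a2 (-2.55), Slco4c1 (-2.39), Slco1a1 (-2.23) and Abcb1a (-1.93).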

How the results depend on the processing

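The count of called interactions moved with the processing. Against 376 genes (51.3% higher), DESeq2 called 748 (61% higher), limma-voom with sample weights 1075, library size alone 590 (21.5% higher, with the median of all genes at -0.096), no filter on low counts 239, the 4 groups alone 194, and the 4 groups alone without ob replicate 5 at 2 mg/kg 747. Relative log expression scaling gave 393 (60.8% higher). Leaving out 1 library gave 216 to 758 calls: 216 and 246 without untreated b6j replicates 3 and 5, 244 without b6j replicate 1 at 2 mg/kg, and 758 and 748 (64.4% higher) without ob replicates 5 and 6 at 2 mg/kg. The b6j response went from 4305 to 6949 genes with limma-voom and ranged from 3718 to 6388 without 1 library. The untreated genotype difference went from 2822 to 5629 with limma-voom and to 4809 with the 4 groups alone without that ob library, and ranged from 2257 to 4781 without 1 library. Of the 108 named genes, 1 changed sign: Acot1 ranged from -1.24 to 0.32 without 1 library and was at -1.25 with the 4 groups alone without that ob library, -1.20 with limma-voom and -0.34 with a replicate block. Over all alternatives their direction and call held in 3140 comparisons, the call was lost in 242 and gained in 174. Same-numbered libraries correlated at -0.164 to 0.162 in 36 pairs, 2 of them over 0.1, and the replicate block gave 322 interactions (162 higher and 160 lower). The cause of these differences was not tested. Depth limits Areg, Popdc3 and Slc7a11, which were at or near 0 reads in untreated ob.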
